A study of Rattus norvegicus with 5 samples.

Results

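The genes described here encode the proteasome. They were taken from the gene symbols of the deposited tables by name, as every symbol that begins with Psma, Psmb, Psmc or Psmd followed by a number, or with Psme1 to Psme4. This rule matched 44 of 30017 symbols. They were 31 constitutive subunits of the 20S core and the 19S regulator, 5 genes of the immunoproteasome (Psmb8, Psmb9, Psmb10, Psme1 and Psme2), 3 chaperones that assemble the 19S regulator (Psmd5, Psmd9 and Psmd10), 2 other activators of the core (Psme3 and Psme4) and 2 subunits of restricted tissues, Psma8 of the testis and Psmb11 of the thymus. The last match was Psmc3ip, a meiotic recombination factor that shares only the name. Each gene was measured in single cells of rat skin in 5 libraries, 1 of control skin without radiation and 1 each of skin taken 7, 14, 28 and 60 days (d) after irradiation.

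The animals were Sprague-Dawley (SD) rats, all male and aged 4 weeks when obtained. A shaved field on the buttock received a single dose from an electron beam while the rest of the body was shielded, as the study's methods describe. The control was another piece of skin. The methods describe the 7, 14 and 28 d skin, and the dose and origin of the 60 d skin are not given in the sources used here. The number of animals per library is not given either. Each group was 1 library, so there was no replicate check and no test between groups, and every interval below is a 95% interval that covers counting error only.

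The proteasome is the protease that degrades proteins tagged with ubiquitin. Its 20S core is a barrel of α and β rings whose cutting sites lie on Psmb5, Psmb6 and Psmb7, and its 19S regulator, built from ATPases (Psmc genes) and non-ATPase subunits (Psmd genes), binds and unfolds the substrate. Interferon-γ induces the immunoproteasome, in which Psmb8, Psmb9 and Psmb10 take the places of Psmb5, Psmb6 and Psmb7. It also induces the PA28 activator made of Psme1 and Psme2, and both change the peptides offered on MHC class I. Leukocytes carry it without stimulation.

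The promoters of the 5 immunoproteasome genes are shown because these genes moved apart from the constitutive subunits below. The 250 bases before each start are RefSeq sequence of rat build GRCr8, a later build than the Rnor_6.0 used by the authors, and are written 5′ to 3′ on the strand of the gene. They are chr20:4657032-4657281 (minus strand) for Psmb8, chr20:4668750-4668999 (plus strand) for Psmb9, chr19:50743293-50743542 (minus strand) for Psmb10, chr15:33038721-33038970 (plus strand) for Psme1 and chr15:33052752-33053001 (minus strand) for Psme2. Capitals mark matches on either strand. One motif is GAAA followed after 2 free bases by GAAA, the core of the interferon-stimulated response element (ISRE). The other is TTC followed after 3 free bases by GAA, the core of the interferon-γ activated site (GAS).
Psmb8: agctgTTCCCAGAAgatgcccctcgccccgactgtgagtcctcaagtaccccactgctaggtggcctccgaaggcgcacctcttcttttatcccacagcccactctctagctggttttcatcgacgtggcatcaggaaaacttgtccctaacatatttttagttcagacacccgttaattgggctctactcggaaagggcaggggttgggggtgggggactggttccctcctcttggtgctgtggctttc
Psmb9: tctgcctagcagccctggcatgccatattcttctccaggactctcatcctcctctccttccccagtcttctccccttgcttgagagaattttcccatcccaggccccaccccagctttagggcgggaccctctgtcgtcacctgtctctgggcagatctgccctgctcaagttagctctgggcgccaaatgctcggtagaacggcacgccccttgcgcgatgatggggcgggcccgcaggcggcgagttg
Psmb10: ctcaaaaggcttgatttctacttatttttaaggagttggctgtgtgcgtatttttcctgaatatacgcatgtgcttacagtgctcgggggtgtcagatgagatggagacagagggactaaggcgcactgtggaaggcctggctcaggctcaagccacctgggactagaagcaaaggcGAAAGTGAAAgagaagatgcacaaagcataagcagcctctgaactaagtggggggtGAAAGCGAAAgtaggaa
Psme1: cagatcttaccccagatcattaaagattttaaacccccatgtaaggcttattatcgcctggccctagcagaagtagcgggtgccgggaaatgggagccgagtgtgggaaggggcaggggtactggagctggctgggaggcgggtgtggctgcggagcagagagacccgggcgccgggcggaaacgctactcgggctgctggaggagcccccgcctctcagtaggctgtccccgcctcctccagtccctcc
Psme2: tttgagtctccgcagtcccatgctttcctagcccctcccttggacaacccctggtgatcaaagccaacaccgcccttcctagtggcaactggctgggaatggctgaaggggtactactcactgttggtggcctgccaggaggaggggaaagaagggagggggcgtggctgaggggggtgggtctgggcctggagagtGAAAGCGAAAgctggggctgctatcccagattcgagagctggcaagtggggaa

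The ISRE core was present in the Psmb10 window at 73 to 64 and at 17 to 8 bases before the start, and in the Psme2 window at 53 to 44 bases before it. The GAS core was present in the Psmb8 window at 245 to 237 bases before the start. The windows of Psmb9 and Psme1 held neither motif. Over 33469 rat promoters, 3.41% held the ISRE core and 7.67% the GAS core. Promoters were found for 39 of the 44 genes, and 3 of 27 constitutive subunits (Psma4, Psmb3 and Psmd7) also held the ISRE core and 3 (Psmc6, Psmd3 and Psmd7) the GAS core. The core of the antioxidant response element, TGAC followed after 3 free bases by GC, which the proteasome regulators NRF1 and NRF2 bind, was present in 7 of the 39 promoters, among them those of the cutting subunits Psmb5 and Psmb6, against 10.1% of all promoters. These are matches of letters, not measured binding. Psmb9 lay head to head with Tap1, a subunit of the peptide transporter of the MHC class I pathway, with 457 bases between the starts.

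Cells were assigned to classes by marker genes, and the unique molecular identifiers (UMIs) of each class in each library were summed and expressed per 1000000 UMIs of those cells (CPM). After filtering, 4370 to 11304 cells were kept per library and 76.5% to 94.9% of them were assigned. Keratinocytes numbered 1689 to 6664 per library and fibroblasts 79 to 7536, with the fewest fibroblasts at 14 d. At least 50 cells were present in 35 combinations of class and library. Control skin held fewer than 50 Schwann, T and NK or muscle cells, so those classes have levels and no comparison. Libraries shared 11 to 41 cell barcodes with each other, at most 0.382% of the smaller library. The 14 d library stood apart in 3 ways, with 25.5% of barcodes above the mitochondrial limit against 6.4% to 14.1% in the others, the fewest fibroblasts, and a median of 23870 UMIs in its keratinocytes against 10291 to 15676 in the other libraries.

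In keratinocytes, constitutive proteasome RNA was higher in every irradiated library than in control, in CPM most at 7 and 14 d, whereas in fibroblasts it stayed between 0.920-fold and 1.03-fold of control. The summed level of the 5 immunoproteasome genes was higher after irradiation in both classes. Psmb8 alone was below control in fibroblasts at 14, 28 and 60 d, from 1, 8 and 11 UMIs and with ratio intervals that held 1. Relative to the constitutive subunits, the sum was 1.33- to 1.38-fold of control in fibroblasts and 1.09- to 1.34-fold in keratinocytes. Each irradiated library was set against the same control library, so these ratios share its counts. Endothelial cells and phagocytes showed the same direction with larger ratios at 7 and 14 d, but endothelial cells stood at 0.916-fold (0.790 to 1.06) at 28 d. Mural cells, the contractile cells around vessels, stayed close to control. Neutrophils went the other way, at 0.913-fold (0.627 to 1.33) at 14 d and 0.586-fold (0.382 to 0.898) at 28 d. Their cells in those libraries also held less neutrophil marker RNA than in control.

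The summed level of the 31 constitutive subunits in keratinocytes was 4663 CPM in control and 6225, 6266, 5168 and 5439 CPM at 7, 14, 28 and 60 d. The corresponding ratios to control were 1.33 (interval 1.33 to 1.34), 1.34 (1.34 to 1.35), 1.11 (1.10 to 1.11) and 1.17 (1.16 to 1.17). In CPM the rise was thus larger in the first 2 times than in the last 2. In fibroblasts the sum was 3703 CPM in control and 3532, 3627, 3407 and 3807 CPM at 7, 14, 28 and 60 d, with ratios of 0.954 (0.948 to 0.960), 0.979 (0.938 to 1.02), 0.920 (0.903 to 0.938) and 1.03 (1.01 to 1.04). Fibroblasts therefore had less of this RNA in CPM than keratinocytes in all 5 libraries. In endothelial cells the sum was 4295 CPM in control and 5213, 5138 and 4795 CPM at 7, 14 and 28 d. Mural cells ranged from 4155 to 4745 CPM, with 4436 CPM in control. Phagocytes ranged from 3467 CPM at 7 d to 4441 CPM at 14 d, around a control level of 3973 CPM.

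These ratios depend on the scale. The median log2 ratio of all genes tested in keratinocytes was 0.10, -0.49, -0.22 and -0.19 at 7, 14, 28 and 60 d, and in fibroblasts 0.13, 0.05, 0.15 and 0.20. Relative to that median, the log2 ratio of the constitutive sum in keratinocytes was 0.31, 0.91, 0.36 and 0.41, above control at every time but smallest at 7 d. In fibroblasts it was -0.20, -0.08, -0.27 and -0.16, so that the 60 d value changed sign. The fibroblast median at 14 d can include genes without a UMI in those 79 cells, which were given a floor of 3 UMIs.

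**Figure D1:**
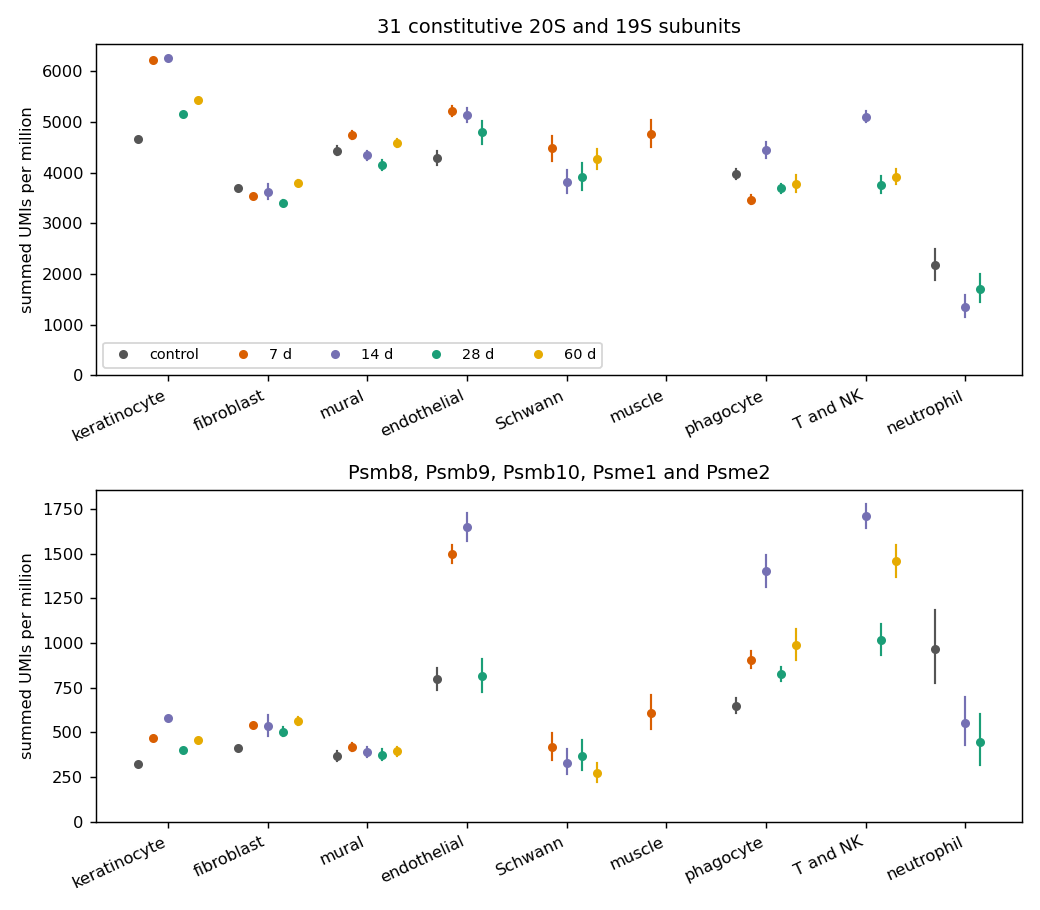
Summed CPM of the 31 constitutive subunits (top) and of the 5 immunoproteasome genes (bottom) by cell class (x axis) and library (colour); points are the level in 1 library and bars the 95% counting interval. Constitutive RNA was higher after irradiation in keratinocytes, from 4663 to between 5168 and 6266 CPM, and immunoproteasome RNA was highest in T and NK cells and in endothelial cells at 14 d.

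In CPM, the keratinocyte rise at 7 d involved the whole complex. All 31 constitutive subunits were above control, with intervals that left out a ratio of 1, and the lowest, the β-ring subunit Psmb4, stood at 1.07-fold (1.04 to 1.10). The log2 ratio of Psmb4, 0.096, was just below the median of 0.104 of all genes tested in those cells. The α ring, which forms the gate of the core, rose from 1493 to 2001 CPM in sum. The 19S ATPases, the motor of the regulator, stood at 812 CPM against 581 CPM and the 19S non-ATPase subunits at 1412 CPM against 1030 CPM. At 14 d the ATPases reached 907 CPM, 1.56-fold of control (1.54 to 1.58), while the α ring was 1.30-fold higher (1.29 to 1.31). The parts of the complex were thus unequal at 14 d. By 60 d the non-ATPase subunits stood at 1.05-fold (1.04 to 1.06) and the α ring at 1.22-fold (1.21 to 1.22). The cutting subunits Psmb5, Psmb6 and Psmb7 together stood at 538 CPM in control and 693, 810.4, 619 and 655 CPM at 7, 14, 28 and 60 d.

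The cutting subunits did not move alike. Psmb5, which makes the chymotrypsin-like site, was 319 CPM in control keratinocytes and 392, 417, 346 and 390.1 CPM at 7, 14, 28 and 60 d, and 225 CPM in control fibroblasts and 219, 191, 226 and 261 CPM. Psmb6, of the caspase-like site, was 129.7 CPM in control keratinocytes and 181, 238, 126 and 151 CPM, and 90.9 CPM in control fibroblasts and 101, 103, 73.5 and 111 CPM. It was thus above control at every time except 28 d in both classes. Psmb7, of the trypsin-like site, was 89.2 CPM in control keratinocytes and 119.7, 155, 147 and 113 CPM, and 75.1 CPM in control fibroblasts and 73.1, 96.2, 82.8 and 74.3 CPM. Psmb7 was above control throughout in keratinocytes, and in fibroblasts at 14 and 28 d.

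A gene was called at a 1.5-fold difference with at least 50 UMIs over both libraries, which 42 of the 44 passed in both classes. Psma8 and Psmb11 did not, with at most 15 UMIs and 1 UMI in any library of either class. In keratinocytes 11 of 42 genes were at least 1.5-fold higher at 7 d, where 17.4% of all genes were, and 0 were lower, where 11.9% were. At 14 d 17 were higher and 1 lower, against 13.6% and 46.4% of all genes. At 28 d 5 were higher and 1 lower, against 11.5% and 29.5%, and at 60 d 3 were higher and 0 lower, against 9.81% and 30.0%. In CPM the share of proteasome genes that were higher was thus above that of all genes at 7 and 14 d and near it at 28 and 60 d. Few were among the many genes that were lower in these cells. In fibroblasts 1 was higher and 0 lower at 7 d, where 17.8% and 6.39% of all genes were, 3 higher and 6 lower at 14 d against 25.8% and 20.4%, 1 higher and 3 lower at 28 d against 25.9% and 13.9%, and 4 higher and 0 lower at 60 d against 27.3% and 15.0%. In fibroblasts the shares higher were below the background at 7, 28 and 60 d. For a ratio, a gene without UMIs in a library was given a floor of 3 UMIs. The fibroblast pool at 14 d was so small that genes without a UMI there could count as higher. The 14 d shares of all fibroblast genes can hold such genes, so no reading was drawn from them. With the median log2 ratio of all genes set to 0, the counts higher in keratinocytes were 4, 33, 9 and 11 of 42 at 7, 14, 28 and 60 d, against 13.7%, 27.3%, 17.6% and 16.2% of all genes on that scale. The 7 d reading thus changed with the scale, since the share was then no longer above that of all genes. At 28 d it was near that of all genes, and at 14 and 60 d above it.

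Some constitutive subunits moved much more than others. Psmb3, a β-ring subunit without a cutting site, was 206 CPM in control keratinocytes and 371, 349, 280 and 301 CPM at 7, 14, 28 and 60 d. In fibroblasts it was 139 CPM in control and 171, 234, 177 and 225 CPM. It was above control in 5 of 5 classes at 7, 14 and 28 d and in 4 of 4 at 60 d, where the classes (neutrophils left out for their few UMIs) come from the same libraries. Psmc1 and Psmc5, ATPases of the 19S base, reached the largest ratios of the constitutive genes in keratinocytes at 14 d. Psmc1 stood at 52.1 CPM in control and 108 CPM at 14 d (2.07-fold, 1.98 to 2.16). Psmc5 stood at 103 CPM in control and 212 CPM at 14 d (2.06-fold, 1.997 to 2.122). In fibroblasts Psmc5 was the second highest of the constitutive genes at 7 d, at 96.3 against 78.9 CPM (1.22-fold, 1.17 to 1.27), and the highest at 28 d, at 103 CPM (1.30-fold, 1.17 to 1.46). Psme4, the PA200 activator of the core, stood at 40.3 CPM in control keratinocytes and 69.5 CPM at 7 d (1.72-fold, 1.62 to 1.83), and at 61.8 CPM at 28 d (1.53-fold, 1.46 to 1.61). Psmd12, a lid subunit of the regulator, stood at 127 CPM against 89.2 CPM in keratinocytes at 60 d (1.42-fold, 1.38 to 1.47).

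Other subunits were lower. Psmc6, another 19S ATPase, was 131 CPM in control keratinocytes and 93.2 CPM at 14 d (0.712-fold, 0.687 to 0.737), a log2 ratio of -0.49 that equals the median of all genes tested in those cells. In fibroblasts it was 127 CPM in control and 96.8, 55.0, 93.0 and 90.9 CPM at 7, 14, 28 and 60 d. It was below control in 5 of 5 classes at 14 and 28 d and in 4 of 4 at 60 d, and in keratinocytes at 14 d it went against the other 5 ATPases of its ring, all of which were above control. Psmb4, a β-ring subunit, was 225 CPM in control keratinocytes and 153 CPM at 28 d (0.681-fold, 0.664 to 0.698). In fibroblasts Psmb4 was 205 CPM in control, 113 CPM at 28 d (0.551-fold, 0.496 to 0.610) and 144 CPM at 60 d (0.699-fold, 0.647 to 0.755). In the 28 d library Psmb4 was below control in 5 of 5 classes. Library and time cannot be told apart here. Psmb2 in fibroblasts was 203 CPM in control and 162 CPM at 7 d (0.799-fold, 0.777 to 0.823). Psmd4, a ubiquitin receptor of the regulator, and Psmd11, a lid subunit, were the lowest in keratinocytes at 60 d, at 93.1 against 115 CPM (0.813-fold, 0.789 to 0.837) and 69.2 against 80.5 CPM (0.861-fold, 0.831 to 0.891). In fibroblasts Psmd11 was 53.1 CPM in control and 31.8 CPM at 28 d (0.598-fold, 0.489 to 0.726). Psma1, an α-ring subunit, was 72.0 CPM in control fibroblasts and 30.9 CPM in the 79 fibroblasts at 14 d (0.430-fold, 0.254 to 0.680).

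The members outside the complex were low. Psmd10, an assembly chaperone also known as gankyrin, stood at 4.27 CPM in control keratinocytes and at 4.08, 2.55, 2.07 and 3.91 CPM at 7, 14, 28 and 60 d. In fibroblasts it was 4.58 CPM in control and 1.72 CPM at 14 d, the latter from 1 UMI, with an interval of the ratio from 0.00945 to 2.12. Psmc3ip stood at 3.78 CPM in control fibroblasts and 4.55, 15.5, 8.16 and 7.61 CPM at 7, 14, 28 and 60 d, which made it the member with the highest ratio to control in fibroblasts at 14, 28 and 60 d. This gene is no subunit, and its level was among the lowest. Psme3, the nuclear activator PA28γ, stood at 15.8 CPM in control fibroblasts and 27.5 CPM at 14 d (1.74-fold, 0.989 to 2.85), so that the interval of that ratio held 1.

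**Figure D2:**
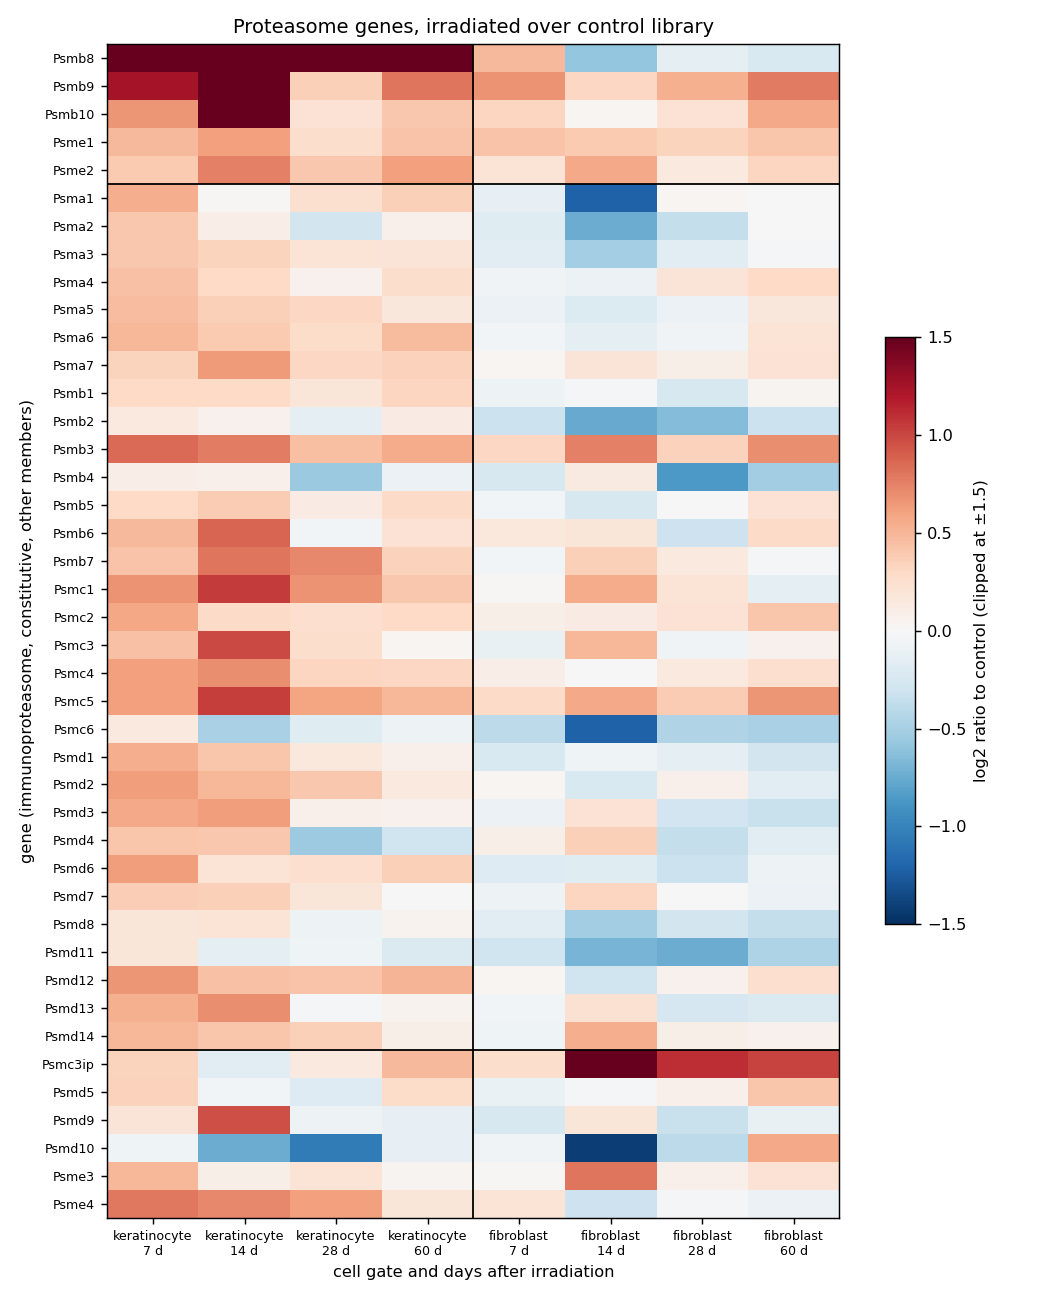
Log2 ratio of each irradiated library to control (colour, clipped at 1.5 on either side) for the 42 proteasome genes with at least 50 UMIs (rows) in keratinocytes (left) and fibroblasts (right) at 7, 14, 28 and 60 d (columns); lines separate the 5 immunoproteasome genes, the 31 constitutive subunits and the other 6 genes. Constitutive rows are mostly red at 7 and 14 d in keratinocytes and near white in fibroblasts at 7 d. Psmb9 is above control in every column, in fibroblasts at 14 d from only 30 UMIs.

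The immunoproteasome genes differed from the constitutive ones in where they were high. In keratinocytes, the summed level of the 5 genes was 323 CPM in control and 469, 581, 400.3 and 459 CPM at 7, 14, 28 and 60 d, or 1.45-, 1.80-, 1.24- and 1.42-fold of control. The fibroblast sum was 410.0 CPM in control and 539, 535, 503 and 561 CPM, or 1.32-, 1.30-, 1.23- and 1.37-fold. All 4 irradiated libraries were above control in both classes, with intervals that left out a ratio of 1. In control skin the order of the classes, from the lowest, was keratinocytes at 323 CPM (319 to 328), mural cells at 367 CPM (341 to 394), fibroblasts at 410.0 CPM (404 to 416), phagocytes at 647 CPM (607 to 689), endothelial cells at 796 CPM (737 to 858) and neutrophils at 964 CPM (776 to 1185), where the last 2 have intervals that overlap.

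Psmb9, also named LMP2, replaces Psmb6 in the immunoproteasome. In keratinocytes it was 19.2 CPM in control and 45.7, 65.8, 24.5 and 33.6 CPM at 7, 14, 28 and 60 d, and in fibroblasts 41.7 CPM in control and 66.5, 51.6, 60.4 and 71.7 CPM. Every irradiated library was above control in both classes, with the widest gap in keratinocytes at 14 d (3.43-fold). The fibroblast value at 14 d rests on only 30 UMIs in 79 cells. In endothelial cells Psmb9 was 127 CPM in control and 295, 350.5 and 170 CPM at 7, 14 and 28 d. In phagocytes it was 117 CPM in control and 168, 393, 208 and 273 CPM at 7, 14, 28 and 60 d. Leaving out neutrophils, Psmb9 was above control in 5 of 5 classes at 7, 14 and 28 d. The interval of the ratio lay above 1 in 4 of these classes at 7 d and in 3 at 14 and 28 d. In neutrophils Psmb9 was 600.1 CPM in control and lower in the irradiated libraries, at 291 CPM at 14 d (0.485-fold, 0.310 to 0.750) and 166 CPM at 28 d (0.277-fold, 0.145 to 0.497), from 56, 36 and 15 UMIs. This gate itself differed between the libraries. Its neutrophil markers had a median of 856 UMIs per 10000 in control, 474 at 14 d and 478 at 28 d. Keratinocyte markers in the same cells had a median of 22.8, 41.5 and 88.4. The part of this difference in the Psmb9 values was not tested. In mural cells at 60 d Psmb9 was below control, at 11.8 against 17.4 CPM.

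Psmb10, also named MECL-1, replaces Psmb7. In keratinocytes it was 27.1 CPM in control and 42.9, 76.2, 31.4 and 35.8 CPM at 7, 14, 28 and 60 d, and in fibroblasts 53.8 CPM in control and 67.2, 55.0, 62.7 and 79.9 CPM. In endothelial cells Psmb10 was 79.7 CPM in control and 197, 237 and 82.2 CPM at 7, 14 and 28 d, near control again at the last. In mural cells it was 51.1 CPM in control, 52.2 CPM at 7 d and 26.3, 31.8 and 27.7 CPM at 14, 28 and 60 d. Mural cells thus had less Psmb10 at the later times, while keratinocytes, fibroblasts and endothelial cells had as much as control or more at each time measured. Phagocytes had more at 7, 14 and 60 d and less at 28 d, at 74.4 CPM against 96.3 CPM in control.

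Psmb8, also named LMP7, replaces Psmb5. Its counts were very low in these tables, with 991 UMIs in all 35 class and library sums where Psmb9 had 22643, and a highest level of 19.3 CPM, in T and NK cells at 14 d. In keratinocytes it was 0.36 CPM in control and 1.42, 2.62, 1.11 and 1.29 CPM at 7, 14, 28 and 60 d, from 22 UMIs in control. The fibroblast level was 2.57 CPM in control and 3.59, 1.72, 2.33 and 2.20 CPM, from 100 UMIs in control and 252, 1, 8 and 11 UMIs. Psmb8 was higher in irradiated keratinocytes at every time, and in fibroblasts at 7 d. Whether reads of this gene were lost in the counting was not tested, so its level was not set against that of Psmb5.

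Psme1 and Psme2, the α and β subunits of PA28, were the most abundant of the 5 genes in keratinocytes and fibroblasts. Psme1 was 187 CPM in control keratinocytes and 261, 285, 225 and 251 CPM at 7, 14, 28 and 60 d, and 218 CPM in control fibroblasts and 294, 287, 274 and 290.5 CPM. Psme2 was 89.7 CPM in control keratinocytes and 118, 151, 119 and 137 CPM, and 93.7 CPM in control fibroblasts and 108, 139, 104 and 117 CPM. Both were above control in all 4 irradiated libraries of both classes. In endothelial cells Psme1 was 494 CPM in control and 797, 810 and 433 CPM at 7, 14 and 28 d. In keratinocytes the ratios of both genes were smaller than that of Psmb9 at 7, 14 and 60 d.

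The ratio of the immunoproteasome sum to the constitutive sum of the same cells does not depend on the scaling. In keratinocytes there were 6.93 immunoproteasome UMIs per 100 constitutive UMIs in control and 7.53, 9.27, 7.75 and 8.43 at 7, 14, 28 and 60 d. In fibroblasts there were 11.1 in control and 15.3, 14.7, 14.8 and 14.7, with ratios to control of 1.38 (1.35 to 1.41), 1.33 (1.18 to 1.501), 1.33 (1.26 to 1.41) and 1.33 (1.28 to 1.39). The fibroblast value was nearly equal at the 4 times after irradiation, whereas the keratinocyte value was highest at 14 d. In both classes this sum was mostly Psme1 and Psme2 RNA. For Psmb8, Psmb9 and Psmb10 alone, the fibroblast ratio to control was smaller at 14 d than at 7 and 60 d. By the full sum, endothelial cells had 18.5 in control and 28.7, 32.0 and 17.0 at 7, 14 and 28 d, where the 28 d interval overlapped control. Phagocytes had 16.3 in control and 26.1, 31.5, 22.4 and 26.1 at 7, 14, 28 and 60 d. Mural cells had 8.26 in control and 8.76 to 9.02 at 7, 14 and 28 d and 8.55 at 60 d, with all 4 ratio intervals holding 1. Neutrophils had only 154 to 203 constitutive UMIs per library, and the ratio there was 44.3 in control skin, 40.5 in the 14 d and 26.0 in the 28 d library. T and NK cells had 33.4, 27.0 and 37.1 at 14, 28 and 60 d, Schwann cells 6.32 to 9.31 and muscle cells 12.7 at 7 d. The phagocyte gate differed between the libraries. Its phagocyte markers had a median of 305 UMIs per 10000 in control, 133 at 14 d and 247 to 265 in the other libraries. The part of this difference in the phagocyte values was not tested.

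**Figure D3:**
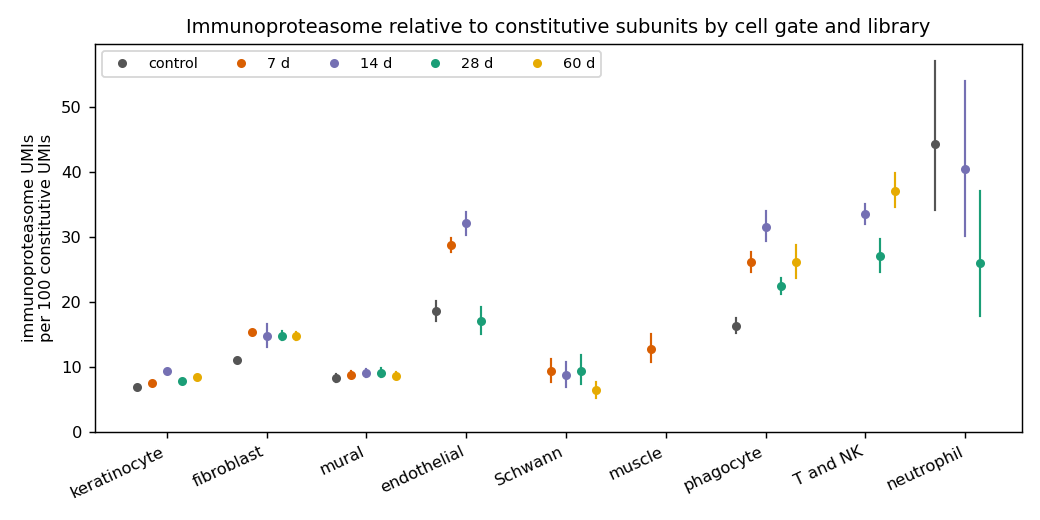
Immunoproteasome UMIs per 100 constitutive UMIs (y axis) by cell class (x axis) and library (colour), with 95% counting intervals. Fibroblasts stood at 11.1 in control and 14.7 to 15.3 after irradiation, mural cells stayed between 8.26 and 9.02, and endothelial cells reached 32.0 at 14 d.

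The exchange of cutting subunits was read as the share of Psmb9 in the UMIs of Psmb9 and Psmb6, and of Psmb10 in those of Psmb10 and Psmb7. These are shares of RNA counted at its 3′ end, not of protein. In keratinocytes the Psmb9 share was 12.9% in control (12.2% to 13.6%) and 20.1%, 21.7%, 16.3% and 18.2% at 7, 14, 28 and 60 d. The fibroblast share was 31.4% in control (30.2% to 32.7%) and 39.6%, 33.3%, 45.1% and 39.3%, where the 14 d share rests on 30 Psmb9 and 60 Psmb6 UMIs. Both classes thus had a larger Psmb9 share after irradiation, apart from the fibroblast 14 d value, whose interval (23.7% to 44.1%) held the control. Endothelial cells had 57.2% in control and 68.9% to 70.5% after irradiation, where the 28 d interval (59.0% to 79.0%) overlapped that of control (49.8% to 64.4%). Phagocytes had 48.6% in control and 58.9% to 71.5%. T and NK cells had 70.5% to 74.9%, and mural cells 6.26% to 14.8%.

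The Psmb10 share gave another picture at 28 d. In keratinocytes it was 23.3% in control and 26.4%, 32.9%, 17.7% and 24.0% at 7, 14, 28 and 60 d. In phagocytes it was 55.3% in control, 63.4%, 62.1% and 62.3% at 7, 14 and 60 d, and 37.4% at 28 d (32.6% to 42.3%). In T and NK cells it was 59.9% and 63.7% at 14 and 60 d and 37.0% at 28 d. In endothelial cells it was 47.9% in control and 46.9% at 28 d, and in mural cells 33.4% in control, 21.4% at 14 d and 20.1% at 28 d. Neutrophils had 12.5% at 28 d, from 8 UMIs. Fibroblasts differed, with 41.7% in control skin, then 47.9%, 36.4%, 43.1% and 51.8%. Thus the 28 d library had the lowest share in keratinocytes, phagocytes and T and NK cells by intervals that did not overlap those of the other libraries, and not in fibroblasts. In that library Psmb7 was above control in 5 of 5 classes, by 1.64-fold in keratinocytes (147 against 89.2 CPM). The Psmb6 level, which enters the Psmb9 share, was below control there in 5 of 5 classes. Keratinocyte markers had a median of 47.8 UMIs per 10000 in T and NK cells at 28 d, against 16.5 and 16.8 at 14 and 60 d. In phagocytes they had a median of 27.7 at 28 d and 8.68 to 15.2 in the other libraries. What set the 28 d library apart, and the part of keratinocyte RNA in these shares, was not tested.

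**Figure D4:**
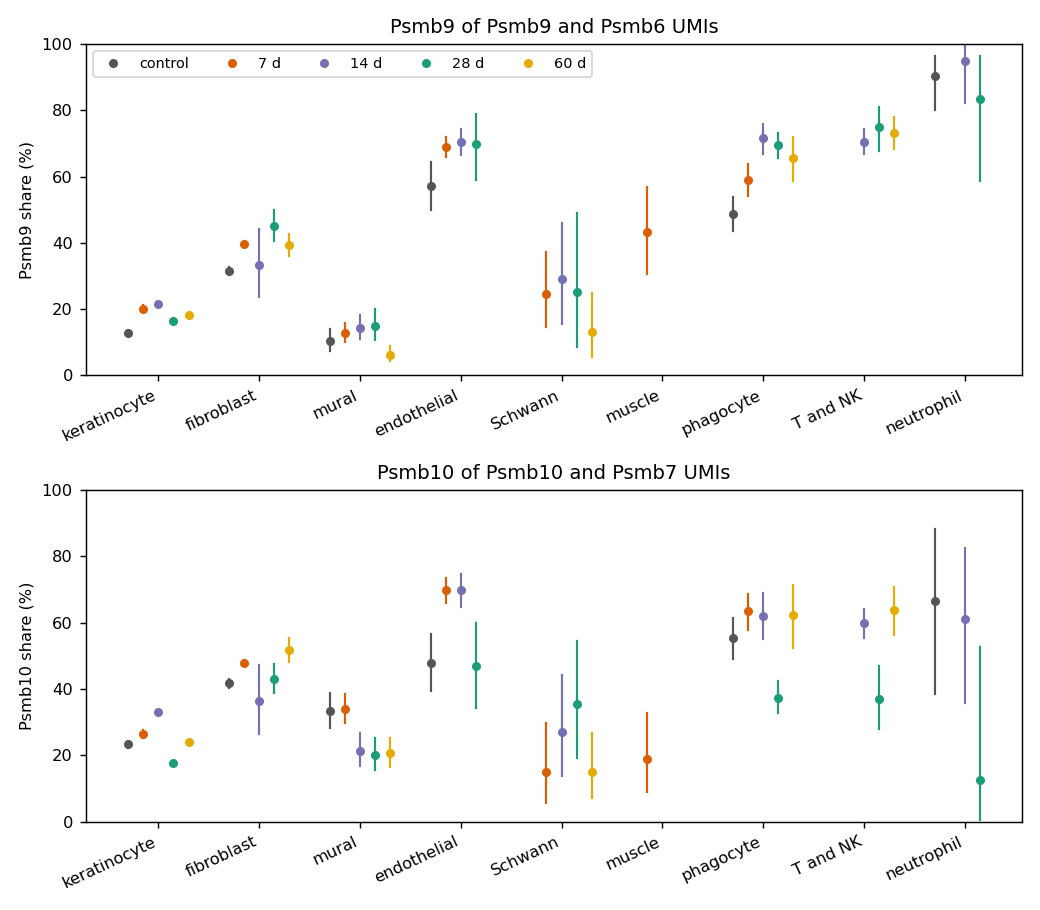
Share of Psmb9 in the UMIs of Psmb9 and Psmb6 (top) and of Psmb10 in the UMIs of Psmb10 and Psmb7 (bottom), in percent, by cell class (x axis) and library (colour), with exact 95% binomial intervals. The Psmb9 share was larger after irradiation in keratinocytes, fibroblasts, endothelial cells and phagocytes, and the Psmb10 share was lowest at 28 d in keratinocytes, phagocytes and T and NK cells but not in fibroblasts.

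The share of cells with a UMI of Psmb8, Psmb9 or Psmb10 was taken at an equal depth of 1000 UMIs drawn from each cell, since the libraries differ in depth. It was 4.07% of control keratinocytes (3.52% to 4.67%) and 7.78%, 12.5%, 5.68% and 6.92% at 7, 14, 28 and 60 d, where the unthinned shares were 37.3%, 54.1%, 72.8%, 38.6% and 57.3%. In fibroblasts the thinned share was 9.42% in control (8.44% to 10.5%) and 12.1%, 8%, 11.1% and 12.6%, against 53.9%, 55.4%, 46.8%, 42.9% and 55.8% unthinned. The fibroblast intervals at 14 d (2.99% to 16.6%), 28 d (8.65% to 13.9%) and 60 d (9.93% to 15.7%) overlapped that of control, and the interval at 7 d (11.3% to 12.9%) did not. No class here is known to lack these genes. Mural cells, which had little Psmb9, had thinned shares of 3.30% to 7.29%. Fibroblasts were above the mural share of the same library at 7, 28 and 60 d by intervals that did not overlap. T and NK cells had 29.1% to 35.4%. Endothelial cells had 18.3% in control, 39.2% and 46.4% at 7 and 14 d and 17.2% at 28 d, where the last interval (8.59% to 29.4%) held the control share. Thinning left out 32 of 4776 control keratinocytes and 220 of 3491 control fibroblasts, and 19 to 240 and 4 to 462 in the irradiated libraries.

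RNA from leukocytes moved with some of these values. The summed level of Ptprc, Coro1a, Laptm5, Cd53 and Cd52, 5 leukocyte genes that no gate used, was 9.12 CPM in control keratinocytes and 9.23, 21.5, 57.6 and 6.46 CPM at 7, 14, 28 and 60 d, and 11.9 CPM in control fibroblasts and 24.8, 20.6, 39.7 and 12.6 CPM. If it came at the proportion of these genes to immunoproteasome RNA seen in phagocytes of the same library, such RNA would carry at most 4.87% of the immunoproteasome level in keratinocytes and at most 3.21% in fibroblasts. That proportion is assumed, and the part of leukocyte RNA in these values was not tested. The neutrophil markers had a median of 37.2 UMIs per 10000 in keratinocytes at 14 d and 0 to 1.18 in the other libraries, and their part in the 14 d values was not tested. Heat shock genes, which respond to tissue handling, summed to 6760 CPM in control fibroblasts and 12064 CPM at 7 d, and to 5291 CPM in control keratinocytes and 7558 CPM at 7 d but 3352 CPM at 14 d. Their part was not tested.

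The makeup of the keratinocytes also moved. Cells rich in Krt5, Krt14 and Krt15, keratins of the basal layer and follicle, were 85.2% of keratinocytes in control and 95.7%, 55.3%, 55.9% and 83.2% at 7, 14, 28 and 60 d. Within these cells the constitutive sum was 4647 CPM in control and 6177, 6808, 5285 and 5517 CPM. In the other keratinocytes it was 4723 CPM in control and 6884, 5734, 5019 and 5205 CPM. Constitutive RNA was thus above control in both parts at every time. Immunoproteasome UMIs per 100 constitutive UMIs were 7.30 in control and 7.68, 10.4, 8.72 and 9.08 in the first part, and 5.64 in control and 5.73, 7.90, 6.44 and 6.36 in the other, where the 7 d value rests on 73 cells.

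Genes that work with the proteasome were read from lists of the pathway. Of these, 6 assemble or restrain the 20S core (Psmg1 to Psmg4, Pomp and Psmf1). In keratinocytes 5 of 6 tested were at least 1.5-fold higher at 14 d and 2 of 6 at 60 d. At 7 and 28 d 0 of 5 were. Of all genes in those cells, 17.4%, 13.6%, 11.5% and 9.81% were higher at 7, 14, 28 and 60 d. One of the 5 higher in keratinocytes at 14 d was Pomp, at only 0.58 against 0.29 CPM. In fibroblasts 3 of 5 were higher at 60 d and 0 at the other times. There 17.8%, 25.8%, 25.9% and 27.3% of all genes were higher at 7, 14, 28 and 60 d. In fibroblasts at 14 d 1 of 5 was lower, near the 20.4% of all genes. Among 12 genes of the ubiquitin system, 1, 3, 1 and 1 were higher in keratinocytes and 0, 2, 0 and 0 lower at 7, 14, 28 and 60 d, where 17.4%, 13.6%, 11.5% and 9.81% of all genes were higher and 11.9%, 46.4%, 29.5% and 30.0% lower. Nfe2l1, which encodes NRF1, the factor that raises proteasome genes when the proteasome is short, stood at 23.6 CPM in control keratinocytes and 39.7, 26.9, 52.4 and 23.3 CPM, and at 14.7 CPM in control fibroblasts and 20.8, 46.4, 56.0 and 26.8 CPM. Nfe2l1 was thus highest at 28 d in both classes. Nfe2l2, which encodes NRF2, was 137 CPM in control keratinocytes and 130.2, 33.8, 71.9 and 85.1 CPM, and 141 CPM in control fibroblasts and 207, 174, 149.6 and 135 CPM. It was thus below control in keratinocytes at every time, unlike in fibroblasts at 7, 14 and 28 d.

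Of 9 tested genes of peptide presentation, 6 were at least 1.5-fold higher in keratinocytes at 7 d, against 17.4% of all genes. At 14, 28 and 60 d 1 was higher, against 13.6%, 11.5% and 9.81%. In these cells 0, 1, 2 and 0 were lower at 7, 14, 28 and 60 d, against 11.9%, 46.4%, 29.5% and 30.0% of all genes. In fibroblasts 0, 2, 1 and 0 were higher, where 17.8%, 25.8%, 25.9% and 27.3% of all genes were. There 0, 0, 2 and 1 were lower, against 6.39%, 20.4%, 13.9% and 15.0% of all genes. At 28 d 2 of these genes were lower and 1 higher in each class, and in keratinocytes neither share was above that of all genes. Tap1, the neighbour of Psmb9, was 30.95 CPM in control keratinocytes and 58.8, 34.7, 28.1 and 27.0 CPM, and 78.9 CPM in control fibroblasts and 82.0, 63.6, 42.9 and 35.8 CPM. In fibroblasts Tap1 was therefore lower at 28 and 60 d while Psmb9 was higher. Irf1, which binds ISRE motifs, differed between the classes, with 323 CPM in control keratinocytes and 159 to 238 CPM after irradiation, against 211 CPM in control fibroblasts and 641 to 773 CPM. Of 9 tested genes of interferon signalling, 3, 2, 1 and 1 were higher and 3, 4, 4 and 4 lower in keratinocytes. Of all genes in those cells, 17.4%, 13.6%, 11.5% and 9.81% were higher and 11.9%, 46.4%, 29.5% and 30.0% lower. In fibroblasts 6, 5, 4 and 4 were higher and 1, 1, 4 and 3 lower, against 17.8%, 25.8%, 25.9% and 27.3% of all genes higher and 6.39%, 20.4%, 13.9% and 15.0% lower. The 14 d shares of all fibroblast genes carry the limit of the small pool given above.

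Across the 35 class and library sums, the genes whose level was most like that of Psmb9 by rank correlation (Spearman's rho), among 339 symbols compared, were the MHC class I genes RT1-CE10 (0.95), RT1-CE4 (0.90) and RT1-A2 (0.87), then B2m (0.86), which encodes the light chain of MHC class I, and Tpm3 (0.81). The values within the family were 0.85 for Psmb8, 0.81 for Psmb10, 0.61 for Psme1 and 0.54 for Psme2. Among the constitutive subunits they ran from -0.63 for Psmc5 and Psmd6 to 0.31 for Psmd11, and for Psmb5 the value was -0.62. The points share libraries and scaling, so these are descriptions without a test.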

How the data were processed

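Raw UMI counts per barcode and gene were deposited by the authors for each of 5 droplet libraries (10x Genomics Single Cell 3′ v3); the submitters' processing notes name Cell Ranger 5.0.0 and Rnor_6.0. No normalization was applied to the deposited counts. Rows that share a symbol were summed (32623 rows, 30017 symbols). Barcodes were kept with at least 500 UMIs, 300 genes and at most 20% mitochondrial UMIs. The dissociation text of the methods ends in a sort against debris and dead cells.

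Each cell was scored against 10 marker lists, of which 70 of 72 symbols were found, and assigned to the best class at a score of at least 0.2, with 3 markers detected and a margin of 0.1 over the next class. No doublet caller was run. The margin removes only cells whose scores for 2 classes are close, so doublets of 1 class and unequal mixtures of 2 classes can remain. Of the 258 T and NK cells at 28 d, 110 lay within 0.05 of the limit, as did 30 of the 82 neutrophils at 28 d. Among phagocytes, 32 of 85 at 14 d and 172 of 417 at 28 d did so.

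Levels are UMIs per 1000000 UMIs of a class in a library, with exact Poisson intervals. Ratios carry the exact conditional binomial interval, shares the Clopper-Pearson interval, and ratios of the immunoproteasome to the constitutive sum a log-normal interval. Thinned shares come from 1 joint draw of 1000 UMIs per cell. With 1 library per group no test was run. A gene was called at 1.5-fold with at least 50 UMIs over both libraries. For a ratio, a gene without UMIs in a library was given a floor of 3 UMIs. Genes named are the immunoproteasome genes, Psmb5, Psmb6 and Psmb7, and the 2 highest and 2 lowest of the other members per comparison in keratinocytes and fibroblasts; the genes of unequal direction across classes, the individual pathway genes and the classes of low depth were added after their values were seen. The members and lists were chosen with earlier results of these data known. Intervals were tested on simulated data. Promoters came from RefSeq tables. Analyses used Python 3.11.15, numpy 2.4.6, scipy 1.17.1, pandas 2.3.3 and matplotlib 3.10.9.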

Additional observations from a re-analysis of the deposited data

Results flagged for a closer look

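The summed level of the 31 constitutive subunits moved in opposite directions in the main skin classes at 7 d and at 28 d. At 7 d the log2 ratio to control was -0.07 in fibroblasts and 0.42 in keratinocytes, and at 28 d it was -0.12 in fibroblasts and 0.15 in keratinocytes. With 1 library in each group this difference between the classes was not tested. The fibroblast values keep their sign with the median of all genes set to 0 (-0.20 and -0.27), and so do the keratinocyte values (0.31 and 0.36).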

How the results depend on the processing

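Values are log2 ratios to control, at 7, 14, 28 and 60 d in that order where 4 are given. With mitochondrial and ribosomal protein genes left out of the scale, the constitutive sum was 0.35, 0.41, 0.12 and 0.27 in keratinocytes and -0.094, -0.15 and 0.014 in fibroblasts at 7, 28 and 60 d. With the median of all genes set to 0 it was 0.31, 0.91, 0.36 and 0.41 in keratinocytes and -0.20, -0.27 and -0.16 in fibroblasts at 7, 28 and 60 d, the last reversed from 0.04; this follows from the median of 0.20 in those cells. As a mean over cells it was 0.33, 0.41, 0.11 and 0.24 in keratinocytes and -0.13, -0.20 and 0.0028 in fibroblasts at 7, 28 and 60 d. With a stricter gate it was 0.43, 0.45, 0.18 and 0.24 in keratinocytes, and with at least 2000 UMIs per cell 0.16 at 28 d.

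For the immunoproteasome relative to the constitutive sum, a mean over cells gave 0.17, 0.48, 0.31 and 0.32 in keratinocytes and 0.49 in fibroblasts at 28 d. The stricter gate gave 0.076, 0.39, 0.12 and 0.25 in keratinocytes. The cause of these shifts was not tested. Alternatives chosen after seeing the data were of 3 kinds. Psmb8, Psmb9 and Psmb10 alone gave 0.53, 1.21 and 0.38 in keratinocytes at 7, 14 and 60 d and 0.55, 0.17 and 0.61 in fibroblasts at 7, 14 and 60 d. In keratinocytes rich in Krt5, Krt14 and Krt15 the ratio was 0.074, 0.52, 0.26 and 0.32 and the constitutive sum 0.55, 0.19 and 0.25 at 14, 28 and 60 d; in the other keratinocytes they were 0.022, 0.49, 0.19 and 0.17, and 0.54, 0.28, 0.088 and 0.14. With the immunoproteasome RNA that leukocyte RNA would bring at the proportion seen in phagocytes subtracted, the ratio was 0.11 in keratinocytes at 28 d.

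The count of genes at least 1.5-fold higher, with the median set to 0, was 4, 33, 9 and 11 in keratinocytes and 0 at 7 d and 1 at 60 d in fibroblasts; the count lower was 0 at 14 d in keratinocytes and 3 at 60 d in fibroblasts. With mitochondrial and ribosomal protein genes left out, 7 were higher in keratinocytes at 7 d. A stricter gate gave 5 higher in fibroblasts at 14 d. In fibroblasts, with no minimum beyond 1 UMI in each library, 1 was lower at 7 d and at 60 d and 2 were higher at 28 d, and with at least 200 UMIs 0 were higher at 28 d. Of the other values, 23 of the constitutive sum, 32 of the ratio and 98 of the counts kept their direction and size within these limits. No paired analysis was possible because each group held 1 library. The limits are 79 fibroblasts at 14 d, classes of under 500 cells outside keratinocytes and fibroblasts, and 22 Psmb8 UMIs in control keratinocytes.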
